A study of Mus musculus with 24 samples.

Results

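The 10 genes described here encode the pyruvate dehydrogenase (PDH) complex and the enzymes that switch it off and on. They were chosen by name, as the 4 PDH kinases (Pdk1, Pdk2, Pdk3 and Pdk4), the 2 PDH phosphatases (Pdp1 and Pdp2) and 4 subunits of the complex (Pdha1, Pdhb, Dlat and Pdhx), out of 55487 genes listed. All 10 were among the 14541 genes that passed the filter on low counts. Bulk RNA was measured in 24 libraries of C2C12 cells, an immortalised mouse myoblast line of wild-type genotype that fuses into myotubes. All cultures had been differentiated to myotubes under 5 % O2 and are labelled as day 5. Unstimulated myotubes were exposed for 2 h to gas with 5 % O2 (5 % CTRL) or 1 % O2 (1 % CTRL). Stimulated myotubes received repeated short bouts of electrical pulses after the same 2 h exposure to 5 % O2 (5 % STIM) or 1 % O2 (1 % STIM). Each group had 6 libraries. The exposure began in medium equilibrated at 5 % O2, and the authors chose 2 h so that the medium could equilibrate with the gas. The O2 levels named below are those of the gas, and the O2 around the cells fell during the exposure to 1 %. The 5 % O2 of the controls is thus also the O2 level of the whole differentiation, and the pulses were given to a single cell line in a dish, without nerve or circulation. The authors replaced the medium before and after the pulses. Their text does not say whether unstimulated cultures had the same changes of medium and the same added time. It also does not give the O2 of the medium added after the pulses. Stimulation below therefore means the pulses with that handling, and the part of each was not tested.

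PDH sits in the mitochondrial matrix and turns pyruvate, the end product of glycolysis, into acetyl-CoA for the citrate cycle. The kinases phosphorylate the E1 alpha subunit and switch the complex off, and the phosphatases remove the phosphate and switch it on again, so the balance between them sets how much pyruvate muscle burns and how much it leaves for lactate. The 4 kinase isoforms are known for different triggers: Pdk1 is a target of hypoxia-inducible factor (HIF), Pdk2 is the widely expressed isoform that responds to pyruvate and ADP, Pdk3 is the isoform least restrained by pyruvate and is also known to be inducible by HIF, and Pdk4 rises in muscle with fasting, exercise, glucocorticoids and fatty acids through FOXO and PPAR factors. Whether the isoforms parted in the same way under low O2 and under stimulation was the question put to these libraries.

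The values are normalized counts, that is, reads assigned to a gene divided by a size factor of the library. The libraries held 26541858 to 28173745 reads on genes, and the members' means in 5 % CTRL ran from 209 normalized counts for Pdp2 to 11357 for Pdha1. One library, 1 % CTRL replicate 1, stood apart from the rest of its group, with a median absolute log2 deviation from the group mean of 0.144 across genes, against 0.0977 or less in every other library. Low O2 changed a large part of the transcriptome and stimulation a smaller part. Of all genes called in 1 % CTRL against 5 % CTRL, 49.05 % were higher, and this share was 62.67 % when the libraries were rescaled to the same total in place of the deposited size factors. These shares were 44.04 % and 62.15 % in 5 % STIM against 5 % CTRL, 50.44 % and 63.21 % in 1 % STIM against 5 % STIM, and 51.4 % and 62.36 % in 1 % STIM against 1 % CTRL. The 12 myotube markers were present in every group, from Acta1, the actin of skeletal muscle, at the top down to Ckm and Actn2. Of 10 markers of blood, endothelial, epithelial, nerve and fat cells, 9 had a mean under 10 normalized counts. In each group 4 were at 0 in all its libraries, not the same 4 in every group. The sums of the 10 were 42.9 to 87.0 over all libraries, and Cd68 was the highest at means of 40.0 to 47.1. Between 1 % CTRL and 5 % CTRL, 9 of 12 myotube markers were lower and none higher, with summed levels of 447400 to 486200 against 506100 to 554400, and 3 of 5 myoblast markers were higher and 1 lower, with sums of 3551 to 5560 against 3066 to 3490. In stimulated myotubes low O2 gave 0 higher and 8 lower of the myotube markers. Stimulation at 5 % O2 gave 0 higher and 3 lower of the 12, with sums of 457600 to 528400, and 2 higher and 1 lower of the myoblast markers. Stimulation at 1 % O2 gave 0 higher and 2 lower of the 12, with sums of 438200 to 487200. Of all genes tested, 29.4 % were higher and 30.5 % lower with low O2 in unstimulated myotubes, and 29.0 % and 28.4 % in stimulated ones. With stimulation these shares were 9.44 % and 12 % at 5 % O2, and 11.5 % and 10.8 % at 1 % O2. The part of these marker changes in the results below was not tested, and in bulk RNA fewer cells of a type and less RNA per cell cannot be told apart.

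The genes are spread over the genome, in coordinates of build GRCm38. Pdk1 (ENSMUSG00000006494) lies at chr2:71873224-71903858, Pdk2 (ENSMUSG00000038967) at chr11:95026258-95041354, Pdk3 (ENSMUSG00000035232) at chrX:93764607-93832201 and Pdk4 (ENSMUSG00000019577) at chr6:5483351-5496309. The 250 bases before each kinase's first RefSeq start (GRCm38.p6) are shown because oxygen moved all 4 genes, and because HIF is known to bind the letters ACGTG and GCGTG. The Pdk1 window is chr2:71872974-71873223 on the + strand, the Pdk2 window chr11:95041372-95041621 on the - strand, the Pdk3 window chrX:93832151-93832400 on the - strand and the Pdk4 window chr6:5496279-5496528 on the - strand. Each is written 5′ to 3′ along the gene, and capitals mark ACGTG or GCGTG read on either strand, so that a match on the other strand shows as CACGT or CACGC.
Pdk1: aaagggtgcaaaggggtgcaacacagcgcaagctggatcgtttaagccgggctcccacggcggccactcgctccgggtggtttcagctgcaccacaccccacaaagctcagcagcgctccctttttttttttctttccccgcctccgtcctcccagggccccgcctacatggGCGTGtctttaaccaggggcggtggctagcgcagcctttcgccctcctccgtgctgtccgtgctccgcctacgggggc
Pdk2: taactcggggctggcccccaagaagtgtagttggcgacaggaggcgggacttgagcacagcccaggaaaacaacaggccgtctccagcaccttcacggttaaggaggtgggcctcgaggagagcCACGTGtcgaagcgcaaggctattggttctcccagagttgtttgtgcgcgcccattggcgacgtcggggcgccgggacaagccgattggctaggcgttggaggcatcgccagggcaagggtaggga
Pdk3: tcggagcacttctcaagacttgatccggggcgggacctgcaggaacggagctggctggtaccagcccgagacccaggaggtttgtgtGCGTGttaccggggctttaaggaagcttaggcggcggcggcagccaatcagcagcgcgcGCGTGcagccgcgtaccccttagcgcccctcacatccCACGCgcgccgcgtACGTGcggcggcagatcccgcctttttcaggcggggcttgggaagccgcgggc
Pdk4: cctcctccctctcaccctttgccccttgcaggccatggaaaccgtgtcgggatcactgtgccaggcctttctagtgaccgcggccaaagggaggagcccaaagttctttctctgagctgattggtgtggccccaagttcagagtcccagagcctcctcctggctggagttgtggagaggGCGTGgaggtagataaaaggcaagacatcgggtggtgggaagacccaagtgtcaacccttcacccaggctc

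Counting the last base before the start as -1 and giving the first letter of a match, Pdk1 held 1 GCGTG at -78 and Pdk4 held 1 GCGTG at -71. The 2 ACGTG matches of Pdk2 were the overlapping strands of 1 palindrome, the E-box CACGTG, at -126. Pdk3 held 1 ACGTG at -53 and 3 GCGTG at -163, -104 and -67. The windows before a second RefSeq start of Pdk1 and of Pdk2 held 0 of either. The letters also stood before members that changed little or not at all with low O2. Pdha1 held 3 GCGTG, Pdhx 2 GCGTG and Pdhb 1 of each, while Dlat held 0. Pdp2, which rose 1.22-fold with low O2 at rest, held 2 ACGTG matches at -219 and -218, again the overlapping strands of 1 CACGTG. Across all 32817 RefSeq windows of 250 bases, 16.57 % held ACGTG, 28.14 % held GCGTG and 38.57 % held either. The kinase whose count rose most at 1 % O2, Pdk1, and the one that fell most, Pdk4, thus had the same letters at nearly the same distance from the start, and these letters do not show that a factor binds there.

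Low O2 split the kinases into pairs that moved in opposite directions. In unstimulated myotubes Pdk1 rose 1.58-fold and Pdk3 rose 1.48-fold from 5 % to 1 % O2, while Pdk4 fell by 54.7 % and Pdk2 fell by 28.7 %, and each of the 4 genes kept the libraries of both groups fully apart. How many of all genes tested did so was not counted, here or in the comparisons below. The separation is thus not read as particular to the kinases. Pdk1 measured 3962.6 to 4272.8 normalized counts in 5 % CTRL (median 4122) and 6274 to 6896 in 1 % CTRL (median 6406). Every library at 1 % O2 thus lay above every library at 5 % O2, by a gap several times the SD within a group. The log2 fold change was 0.66 ± 0.029 (SE), with an adjusted p of 9.69e-20 by limma over all genes tested. Pdk3 measured 326 to 424 in 5 % CTRL (median 354) and 512 to 603 in 1 % CTRL (median 539). Its log2 fold change was 0.57 ± 0.062 (adjusted p = 1.25e-09, limma), so the low-abundance isoform moved with Pdk1.

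Pdk4 went the other way, from 839 to 949 in 5 % CTRL (median 882) to 358 to 469 in 1 % CTRL (median 395). The highest library at 1 % O2 lay far below the lowest at 5 % O2. The log2 fold change of -1.14 ± 0.075 (adjusted p = 8.53e-13, limma) was the largest among the 10 genes in size. Pdk2 measured 812 to 947 in 5 % CTRL (median 864) and 573 to 638 in 1 % CTRL (median 629.6), a log2 fold change of -0.49 ± 0.057 (adjusted p = 3.69e-09, limma). Over the 10 genes, 3 were higher and 4 lower, read against 29.4 % of all genes tested that were higher and 30.5 % that were lower. Without 1 % CTRL replicate 1 the log2 fold changes were 0.64 for Pdk1, -0.50 for Pdk2, 0.54 for Pdk3 and -1.17 for Pdk4, and no call on a kinase changed.

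**Figure D1:**
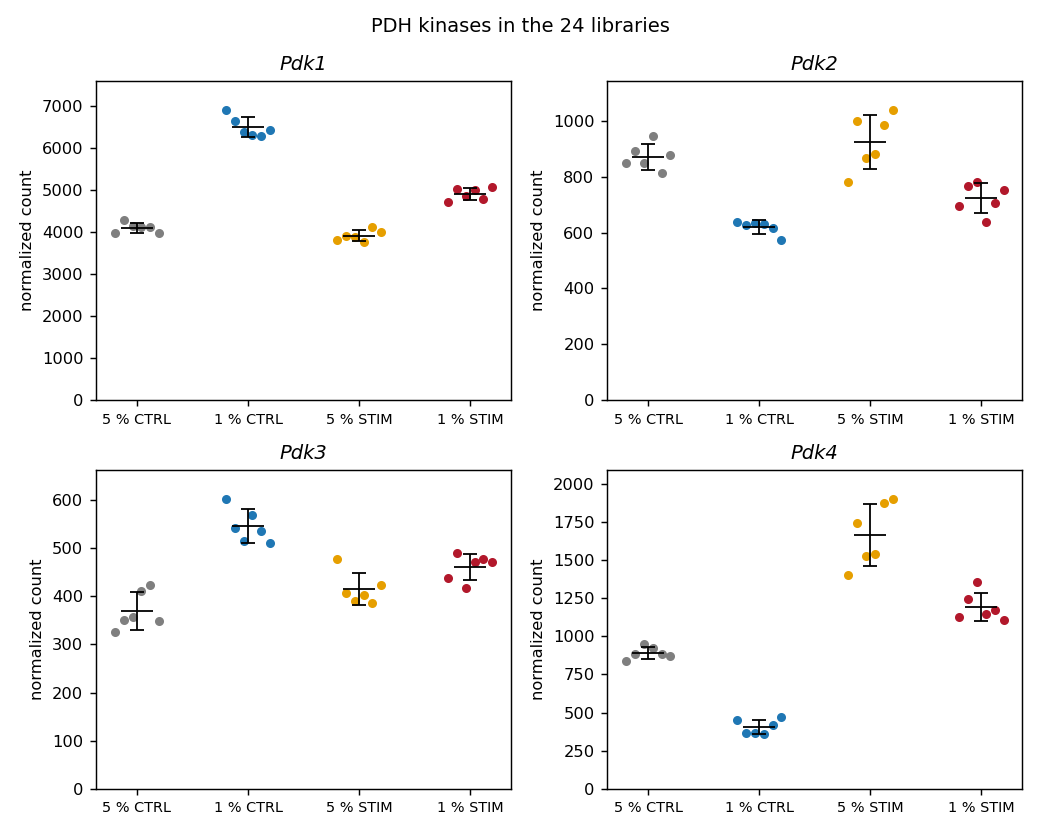
Normalized counts of the 4 PDH kinases (vertical axes from 0) in each of the 24 libraries, by group. Points are libraries, the long dash is the mean and the bars are ± 1 SD (n = 6). The 4 groups of Pdk4 do not overlap one another, with 1 % CTRL lowest at 358 to 469 and 5 % STIM highest at 1405 to 1903.

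Stimulation at 5 % O2 acted on Pdk4 above all. Pdk4 nearly doubled, to 1405 to 1903 in 5 % STIM (median 1642), with every stimulated library above every unstimulated one. The log2 fold change was 0.89 ± 0.075, 1.86-fold (adjusted p = 9.83e-10, limma). Pdk1 held 3765 to 4112 in 5 % STIM (median 3890.2) and overlapped 5 % CTRL, with a log2 fold change of -0.07 (95 % interval -0.13 to -0.01, adjusted p = 0.0955, limma). Pdk2 held 781 to 1039 (median 932), the widest spread of this isoform in any group, with a log2 fold change of 0.08 (95 % interval -0.03 to 0.20, adjusted p = 0.341, limma).

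Pdk3 held 386 to 478 in 5 % STIM (median 406) and overlapped 5 % CTRL. Its log2 fold change of 0.17 ± 0.062 passed narrowly (adjusted p = 0.0489, limma), and the call was lost in 17 of the 24 fits that left out 1 library, where the log2 fold change ran from 0.13 to 0.21 and the adjusted p from 0.0132 to 0.153. It was kept only without 5 % CTRL replicate 4 or 5, 1 % CTRL replicate 1, 5 % STIM replicate 3 or 5, or 1 % STIM replicate 2 or 3. Over the 10 genes, 3 were higher and 0 lower at 5 % O2, read against 9.44 % of all genes tested that were higher and 12 % that were lower. The third gene that rose was the phosphatase Pdp2.

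Stimulation at 1 % O2 moved all 4 kinases, and it moved each of them opposite to the direction in which low O2 alone had moved it, in comparisons that share the 1 % CTRL libraries. Pdk4 rose 2.95-fold over 1 % CTRL, to 1108 to 1355 in 1 % STIM (median 1160.3), a log2 fold change of 1.56 ± 0.075 (adjusted p = 1.27e-14, limma). This brought Pdk4 above every library of 5 % CTRL and left it below every library of 5 % STIM. Pdk1 fell by 24.4 %, to 4708 to 5071 (median 4925), a log2 fold change of -0.40 ± 0.029 (adjusted p = 4.35e-13, limma). It stayed above all libraries at 5 % O2. Pdk3 fell by 15.6 %, to 417 to 490 (median 471), a log2 fold change of -0.24 ± 0.062 (adjusted p = 0.00343, limma). Pdk2 rose 1.16-fold, to 638 to 782 (median 730.1), a log2 fold change of 0.22 ± 0.057 (adjusted p = 0.00383, limma), and its lowest stimulated library met the highest unstimulated one at 638. Over the 10 genes, 2 were higher and 3 lower, read against 11.5 % and 10.8 % of all genes tested.

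Low O2 acted in the same direction on every kinase in stimulated as in unstimulated myotubes, 2 comparisons that share no library. From 5 % STIM to 1 % STIM the log2 fold change was 0.33 ± 0.029 for Pdk1 (adjusted p = 1.29e-11), 0.15 ± 0.062 for Pdk3 (adjusted p = 0.0365), -0.35 ± 0.057 for Pdk2 (adjusted p = 2.49e-06) and -0.48 ± 0.075 for Pdk4 (adjusted p = 5.69e-06), all by limma. The groups did not overlap for Pdk1 and Pdk4 and overlapped for Pdk2 and Pdk3. The Pdk3 call was lost in 8 of the 24 fits that left out 1 library, namely without 5 % STIM replicate 2, 3, 4 or 5 or without 1 % STIM replicate 2, 4, 5 or 6, where its log2 fold change ran from 0.13 to 0.15. Over the 10 genes, 2 were higher and 3 lower, read against 29.0 % and 28.4 % of all genes tested.

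The difference between the responses at the 2 O2 levels was tested as the interaction of O2 and stimulation, the log2 change with stimulation at 1 % O2 minus that at 5 % O2. It was 0.66 ± 0.11 for Pdk4 (adjusted p = 0.000109), -0.34 ± 0.041 for Pdk1 (adjusted p = 4.81e-07) and -0.41 ± 0.088 for Pdk3 (adjusted p = 0.00147), by limma. Stimulation thus raised Pdk4 more at 1 % than at 5 % O2 and lowered Pdk1 and Pdk3 relative to their response at 5 % O2. For Pdk2 the interaction was 0.14 (95 % interval -0.02 to 0.30, adjusted p = 0.288, limma), so a difference of either size within that interval was not resolved. Of the 10 genes, 1 had a positive and 2 a negative interaction that passed, read against 5.88 % and 5.43 % of all genes tested.

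**Figure D2:**
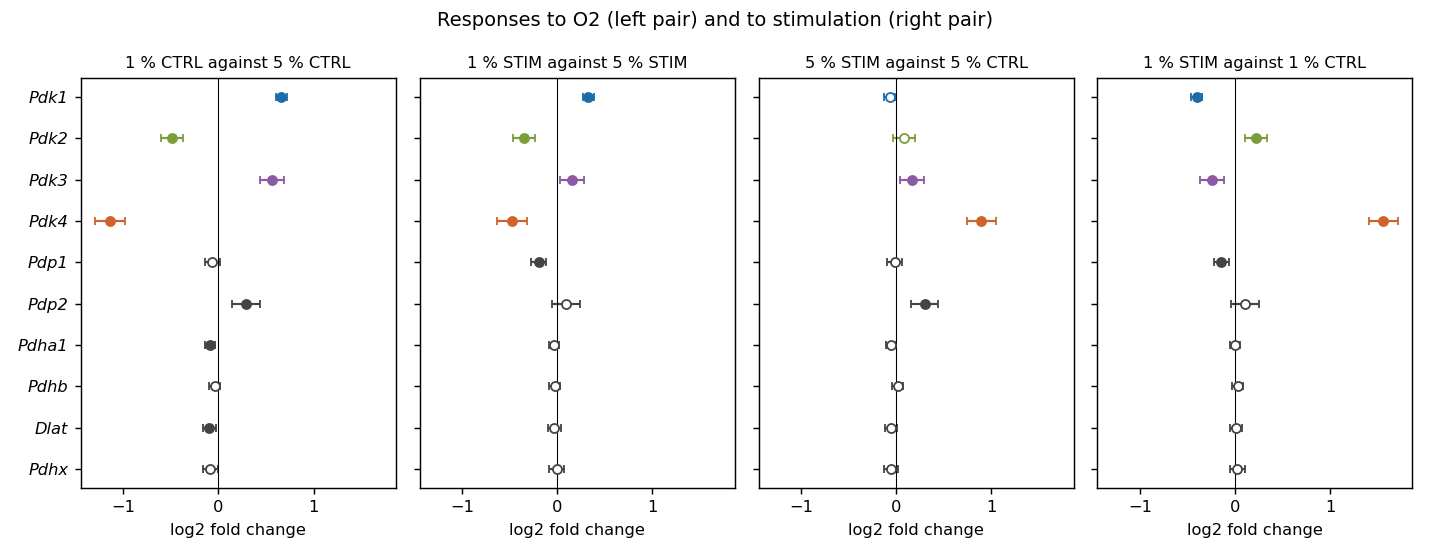
Log2 fold changes (horizontal axes) of the 10 genes in the 4 comparisons, with 95 % intervals from the limma fit. Filled points passed an adjusted p of 0.05 and open points did not, and the kinases span -1.14 to 1.56 while the 4 subunits lie between -0.10 and 0.03.

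The isoforms were then set against each other inside each library, as the log2 ratio of 2 kinases, in which the size factor cancels except through the pseudocount. The 6 pairs in 4 comparisons gave 24 two-sided exact permutation tests of 6 against 6 libraries, whose smallest possible p is 0.00216. The ratio changed in 5 of 6 pairs with low O2 and in 5 of 6 with stimulation at 5 % O2, in 6 of 6 with low O2 in stimulated myotubes and in 6 of 6 with stimulation at 1 % O2, after Benjamini-Hochberg adjustment over the 24. The 6 ratios are built from the same 4 genes, so they are not 6 separate results. How often ratios of other genes changed was not counted. The widest separation was between Pdk1 and Pdk4. Low O2 in unstimulated myotubes shifted their log2 ratio by 1.80 ± 0.070 (SE), and stimulation at 1 % O2 shifted it back by -1.96 ± 0.082, each with no overlap of libraries and an adjusted p of 0.00346 by the exact permutation test.

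Pdk1 and Pdk3 were the pair that low O2 did not separate in unstimulated myotubes, with a change in log2 ratio of 0.10 ± 0.064 (adjusted p = 0.19, exact permutation test). In stimulated myotubes low O2 raised Pdk1 more than Pdk3, by 0.17 ± 0.064 (adjusted p = 0.0137, exact permutation test). Pdk2 and Pdk4 both fell at 1 % O2, but Pdk4 fell further, by 0.65 ± 0.093 on the log2 ratio in unstimulated myotubes (adjusted p = 0.00346) and by 0.13 ± 0.045 in stimulated ones (adjusted p = 0.0182), both by the exact permutation test. Stimulation at 5 % O2 did not measurably separate Pdk2 from Pdk3, with a change of -0.09 ± 0.12 (adjusted p = 0.494, exact permutation test). The Pdk1 to Pdk2 change at 5 % O2, -0.15 ± 0.061 (adjusted p = 0.0449, exact permutation test), was lost when any of 9 single libraries was left out: all of 5 % CTRL except replicate 4, and 5 % STIM replicates 2, 4, 5 and 6, without which it ran from -0.12 to -0.16. Stimulation at 1 % O2 separated the pairs as well, with Pdk4 rising over each of the others on the log2 ratio, by 1.96 over Pdk1, 1.80 over Pdk3 and 1.34 over Pdk2.

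Counts per kb of exon, a rough scale for levels of different genes, showed a make-up of kinase transcripts that turned over with both treatments. The length is that of all annotated exons of a gene, and which of them these cells use was not determined. Shares and orders of level between genes, here and below, depend on it, while changes of 1 gene between groups do not. Pdk1 made up 43.9 % ± 0.94 (SD, n = 6) of kinase counts per kb in 5 % CTRL and 61.4 % ± 0.69 in 1 % CTRL. After stimulation its share was 35.2 % ± 1.5 in 5 % STIM and 45.7 % ± 1.3 in 1 % STIM. Pdk4 made up 21.1 % ± 0.61, 8.50 % ± 0.94, 33.0 % ± 1.9 and 24.6 % ± 1.4 in the order 5 % CTRL, 1 % CTRL, 5 % STIM, 1 % STIM. Pdk4 was thus the scarcest isoform in 1 % CTRL and close to Pdk1 in 5 % STIM. Pdk2 supplied 22.9 % ± 0.99, 14.4 % ± 0.63, 20.4 % ± 0.98 and 16.6 % ± 0.90, and Pdk3 12.01 % ± 1.0, 15.7 % ± 0.66, 11.4 % ± 1.4 and 13.1 % ± 0.82. The ratio of Pdk1 to Pdk4 per kb ran from 1.07 ± 0.11 in 5 % STIM to 7.30 ± 0.81 in 1 % CTRL. The ratio of Pdk3 to Pdk2 per kb was 0.525 ± 0.063 in 5 % CTRL and 1.09 ± 0.055 in 1 % CTRL, with 1 % CTRL libraries between 1.00 and 1.17, so Pdk3 drew level with Pdk2 or just above it.

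**Figure D3:**
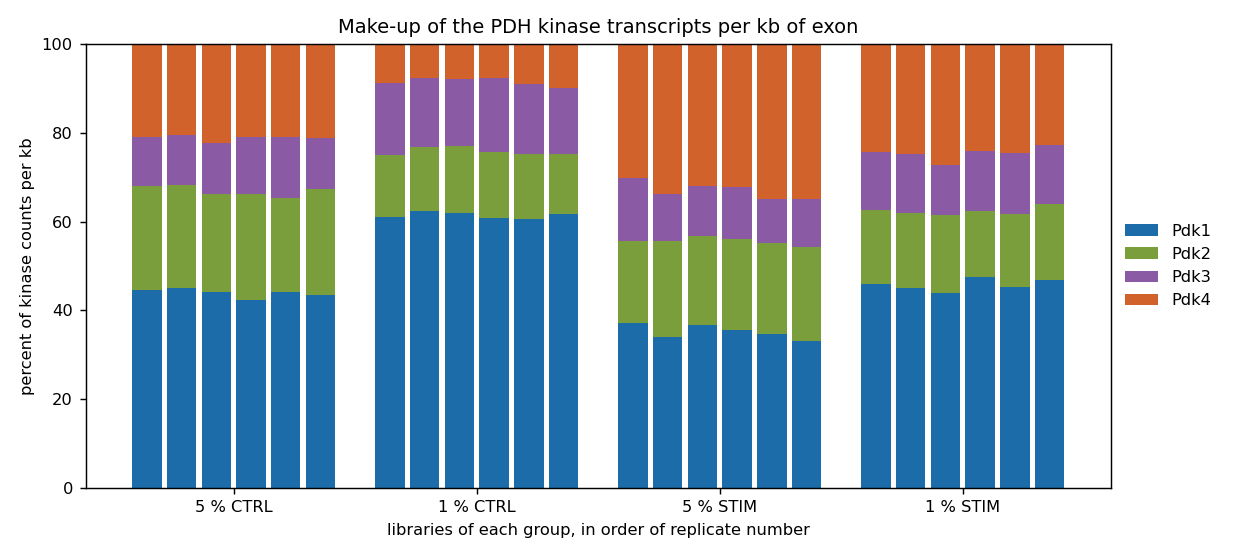
Share of each kinase in the summed kinase counts per kb of exon (vertical axis, percent), 1 bar per library. Pdk1 takes 60.6 to 62.3 % of every 1 % CTRL bar and 33.2 to 37.0 % of every 5 % STIM bar, and the 6 bars of a group are nearly alike.

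The summed level of the 4 kinases had a mean of 1201 ± 38 normalized counts per kb (SD, n = 6) for 5 % CTRL, 1359 ± 48 for 1 % CTRL, 1432 ± 96 for 5 % STIM and 1379 ± 44 for 1 % STIM. All libraries of the other 3 groups lay above the 5 % CTRL range of 1146 to 1253. The ratio of summed kinases to summed phosphatases per kb was 4.63 ± 0.26, 5.27 ± 0.12, 5.40 ± 0.51 and 5.73 ± 0.17 in the same order. These are transcript ratios, given as a description with no test, and they do not measure enzyme or phosphorylation.

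Across the 10 genes, counts per kb put Pdha1 far above the rest in every group, from 2855 in 1 % STIM to 3041 in 5 % CTRL, and Pdp2 at the foot, from 36.7 to 48.1. In 5 % CTRL the order below Pdha1 was Pdhb at 676, Pdk1 at 527, Dlat at 453, Pdhx at 337, Pdk2 at 275, Pdk4 at 254, Pdp1 at 223 and Pdk3 at 144, where Pdk2, Pdk4 and Pdp1 overlapped their neighbours in the order and the others did not. In 1 % CTRL Pdk1 at 834 passed Pdhb at 658, and Pdk4 dropped to 115, below Pdk3 at 213, Pdp1 at 213 and Pdk2 at 196, of which Pdk3, Pdp1 and Pdk2 overlapped. In 5 % STIM Pdk4 at 475 overlapped both Pdk1 at 503 and Dlat at 437. In 1 % STIM Pdk1 at 630.3 overlapped Pdhb at 670, and Pdk4 at 340 overlapped Pdhx at 324. Pdha1 stayed first and Pdp2 last in every group, and the other genes changed rank.

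The phosphatases passed the test in different comparisons, Pdp1 where both treatments were given and Pdp2 where only 1 was. Pdp1 (ENSMUSG00000049225), the isoform that calcium is known to activate, measured 979.5 to 1089 in 5 % CTRL (median 987), 900 to 1032 in 1 % CTRL (median 950), 940.1 to 1045 in 5 % STIM (median 994) and 842 to 906 in 1 % STIM (median 858). It fell by 12.7 % from 5 % STIM to 1 % STIM (log2 fold change -0.20 ± 0.039, adjusted p = 5.53e-05, no overlap of libraries) and fell by 9.53 % from 1 % CTRL to 1 % STIM (-0.14 ± 0.039, adjusted p = 0.00558), by limma. Neither low O2 alone (-0.07, adjusted p = 0.146) nor stimulation alone (-0.01, adjusted p = 0.842) passed the limma test, and the interaction of -0.13 did not pass either (95 % interval -0.24 to -0.02, adjusted p = 0.13).

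Pdp2 (ENSMUSG00000048371), the isoform that calcium does not activate, measured 181 to 252 in 5 % CTRL (median 205), 235 to 279 in 1 % CTRL (median 252), 224 to 286 in 5 % STIM (median 259) and 246 to 297 in 1 % STIM (median 280.2). It rose 1.22-fold with low O2 alone (log2 fold change 0.29 ± 0.072, adjusted p = 0.000781) and 1.23-fold with stimulation alone (0.30 ± 0.072, adjusted p = 0.00214), by limma, with overlapping libraries in both. With the other treatment already given, low O2 gave 0.09 (adjusted p = 0.27) and stimulation 0.10 (adjusted p = 0.335) by limma, and the interaction of -0.19 did not pass (95 % interval -0.40 to 0.01, adjusted p = 0.233). Pdp2 supplied 14.1 % ± 0.97 of phosphatase counts per kb in 5 % CTRL and 19.98 % ± 1.4 in 1 % STIM (SD, n = 6), so Pdp1 remained the main isoform.

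The subunits of the complex were the steadiest of the 10 genes. Pdha1 (ENSMUSG00000031299), the E1 alpha subunit that the kinases phosphorylate, fell by 6.14 % from 5 % CTRL (10876 to 11626, median 11415) to 1 % CTRL (10233 to 11303, median 10493), with overlapping libraries (log2 fold change -0.09 ± 0.026, adjusted p = 0.00337, limma). Dlat (ENSMUSG00000000168), the E2 core that carries the lipoyl arms, fell by 6.39 % (2146 to 2308 against 2027 to 2139, log2 fold change -0.10 ± 0.033, adjusted p = 0.0119, limma). Both calls were lost when the libraries were rescaled to the same total, where the log2 fold changes were -0.01 and -0.01. Pdhb (ENSMUSG00000021748), the E1 beta subunit, gave -0.04 (adjusted p = 0.253) and Pdhx (ENSMUSG00000010914), which tethers E3 to the core, gave -0.08 (adjusted p = 0.0556) by limma. The Pdhx value passed when 1 of 5 libraries was left out, 5 % CTRL replicate 6, 1 % CTRL replicate 1, 5 % STIM replicate 3 or 1 % STIM replicate 2 or 3, with log2 fold changes of -0.08 to -0.10.

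None of the 4 subunits passed the limma test in the other 3 comparisons or for the interaction. Their log2 fold changes lay between -0.06 and 0.01 in 5 % STIM against 5 % CTRL, between -0.04 and -0.01 in 1 % STIM against 5 % STIM, and between 0.00 and 0.03 in 1 % STIM against 1 % CTRL. The 95 % interval of Pdha1 was -0.05 to 0.05 in the last of these, so a change of more than a few percent with stimulation at 1 % O2 lay outside it. Exons of Pdha1 overlap the gene Map3k15 on the other strand and share 10.6 % of their 75-base words with it, and Pdhb shares 6.86 % with the predicted gene Gm6123. The counting is not stated to use strand, so the Pdha1 level is uncertain.

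**Figure D4:**
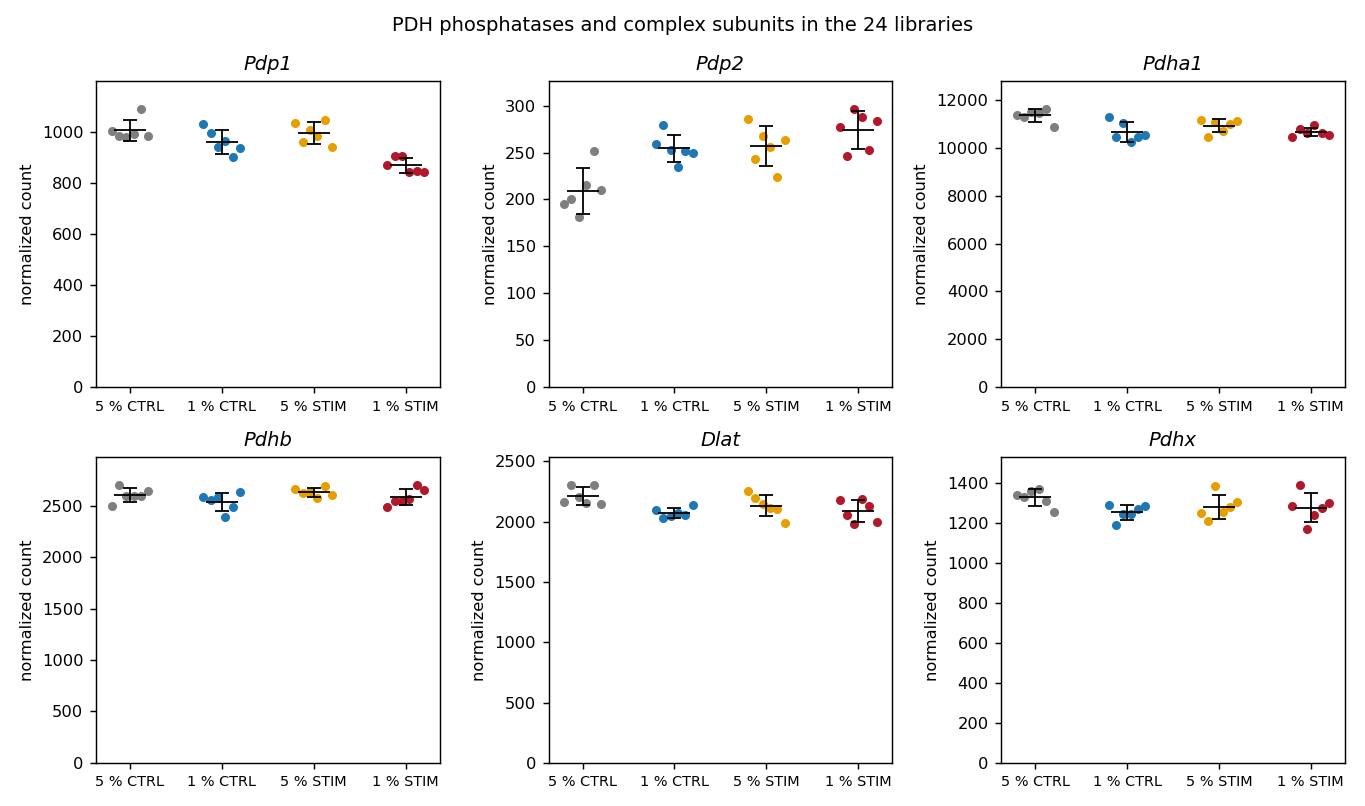
Normalized counts of the 2 phosphatases and 4 subunits (vertical axes from 0) in each of the 24 libraries, by group, with the mean and ± 1 SD (n = 6). Pdp1 is lowest in 1 % STIM at 842 to 906 and Pdp2 lowest in 5 % CTRL at 181 to 252, while the subunit groups lie close together.

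Other genes of the PDH system gave small changes. Dld, the E3 subunit that PDH shares with the sister dehydrogenases, fell by 8.85 % with low O2 in unstimulated myotubes (log2 fold change -0.13 ± 0.035, adjusted p = 0.00139) and fell by 8.95 % in stimulated ones (-0.14 ± 0.035, adjusted p = 0.00132), by limma, and both calls were lost under rescaling to the same total (-0.05 and -0.07). Pdpr, the regulatory subunit of the phosphatase, did not pass in any comparison, with log2 fold changes between -0.08 and 0.02. Its low O2 value in unstimulated myotubes did pass without 5 % CTRL replicate 2 or 1 % CTRL replicate 1, at -0.12 and -0.10. Pdha2, the testis form of E1 alpha, had 1 read in a single 5 % CTRL library and none elsewhere. Among 6 genes of lipoate synthesis and transfer, which make the cofactor of Dlat, 1 was higher and 1 lower with low O2 at rest: Nfu1 at 0.12 (adjusted p = 0.0395) and Lipt1 at -0.31 (adjusted p = 0.000854), by limma. None of these 6 passed with stimulation at 5 % O2. Of all genes tested, 29.4 % were higher and 30.5 % lower with low O2 at rest, and 9.44 % and 12 % with stimulation.

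Counts of called genes in lists around PDH are read against the shares over all genes tested, which were 29.4 % higher and 30.5 % lower with low O2 at rest and 9.44 % higher and 12 % lower with stimulation at 5 % O2. Of 10 genes that supply pyruvate or use it otherwise, 3 were higher and 5 lower in 1 % CTRL against 5 % CTRL, with a median log2 fold change of -0.05 against 0.00 over all genes tested. Ldha, the lactate dehydrogenase subunit that favours lactate, rose by 0.38 ± 0.028 (adjusted p = 6.40e-14), Me2, the mitochondrial malic enzyme, rose by 0.74 ± 0.042 (adjusted p = 1.04e-16), and Gpt2, the mitochondrial alanine transaminase, fell by 0.58 ± 0.036 (adjusted p = 7.94e-16), on the log2 scale by limma. With stimulation at 5 % O2 only 2 of the 10 passed, Gpt2 at 0.65 ± 0.036 (adjusted p = 6.25e-16) and Ldha at -0.12 ± 0.028 (adjusted p = 0.00156), by limma. The 14 citrate cycle genes gave 2 higher and 2 lower with low O2, each below its share, a difference that was not tested. They gave 0 higher and 1 lower with stimulation at 5 % O2, near those shares for so few genes. Suclg2, the GTP-forming succinyl-CoA ligase subunit, rose by 0.41 ± 0.043 (adjusted p = 4.26e-10), Fh1, fumarase, rose by 0.10 (adjusted p = 0.0121) and Sdha, a succinate dehydrogenase subunit, changed by -0.10 (adjusted p = 0.00342) with low O2 and -0.10 (adjusted p = 0.0138) with stimulation, by limma.

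Of 8 tested genes of the sister complexes (2-oxoglutarate and branched-chain keto acid dehydrogenase) and their own kinase and phosphatase, 2 were higher and 3 lower with low O2 at rest, near the shares of 29.4 % and 30.5 % over all genes tested. They gave 0 higher and 1 lower with stimulation at 5 % O2, against 9.44 % and 12 %. Ppm1k, the branched-chain phosphatase, rose by 0.64 ± 0.10 (adjusted p = 1.97e-06), Dhtkd1, of the 2-oxoadipate dehydrogenase, rose by 0.34 (adjusted p = 0.00315) and Dlst, the E2 core of 2-oxoglutarate dehydrogenase, fell by 0.25 ± 0.025 (adjusted p = 1.79e-10) on the log2 scale by limma. Dbt, the E2 core of the branched-chain complex, fell by 0.22 ± 0.039 with stimulation (adjusted p = 6.49e-05, limma).

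Known targets of the factors named above were set beside the kinases, in lists that hold no kinase gene. Of 15 HIF targets 14 were higher with low O2 at rest and 1, Car9, was lower, read against 29.4 % and 30.5 % of all genes tested, and their median log2 fold change was 1.71. The largest were Slc2a3, a glucose transporter, at 4.52 ± 0.22 (adjusted p = 5.54e-17), Adm, adrenomedullin, at 3.97 ± 0.079 (adjusted p = 1.26e-28) and Ankrd37 at 2.96 ± 0.13 (adjusted p = 4.02e-17), by limma. The values of Pdk1 and Pdk3 there, 0.66 and 0.57, were below that median. Stimulation at 1 % O2 lowered 13 of the 15 and raised 0, with a median of -0.45, beside -0.40 for Pdk1 and -0.24 for Pdk3. Of all genes tested, 10.8 % were lower and 11.5 % higher in that comparison. With stimulation at 5 % O2, 4 were higher and 8 lower, read against 9.44 % and 12 % of all genes tested. Ankrd37 fell by 1.21 ± 0.13 (adjusted p = 7.04e-08), while Ddit4, an inhibitor of mTOR signalling, rose by 0.82 ± 0.14 (adjusted p = 0.000145) and Ndrg1 rose by 0.54 ± 0.030 (adjusted p = 7.31e-16), by limma. The interaction was negative for 11 and positive for 1 of the 15, read against 5.43 % and 5.88 % of all genes tested. In stimulated myotubes low O2 raised 12 and lowered 1, read against 29.0 % and 28.4 % of all genes tested.

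Of 15 PPAR and FOXO targets, 12 were higher and 0 lower with stimulation at 5 % O2, with a median log2 fold change of 0.55, beside 0.89 for Pdk4. The shares among all genes tested were 9.44 % and 12 %. Klf15, a glucocorticoid-responsive factor, rose by 2.96 ± 0.43 from a low level (adjusted p = 2.19e-06), Fbxo32, the atrophy ubiquitin ligase, by 1.18 ± 0.045 (adjusted p = 3.77e-19) and Ucp3, the muscle uncoupling protein, by 0.92 ± 0.13 (adjusted p = 9.72e-07), by limma. With stimulation at 1 % O2 10 were higher and 0 lower, with a median of 0.60, beside 1.56 for Pdk4. The shares among all genes tested were 11.5 % and 10.8 % there. With low O2 at rest 5 were higher and 4 lower, near the 29.4 % and 30.5 % of all genes tested. Angptl4, an inhibitor of lipoprotein lipase, fell by 1.88 ± 0.039 (adjusted p = 5.93e-29) and Cpt1a, the gate of fatty acid entry into mitochondria, fell by 0.67 ± 0.037 (adjusted p = 4.18e-17), as Pdk4 did, while Irs2, the insulin receptor substrate, rose by 1.16 ± 0.076 (adjusted p = 4.02e-15), by limma. In stimulated myotubes low O2 gave 5 higher and 5 lower, near the 29.0 % and 28.4 % of all genes tested. The interaction was positive for 3 and negative for 3, read against 5.88 % and 5.43 %.

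**Figure D5:**
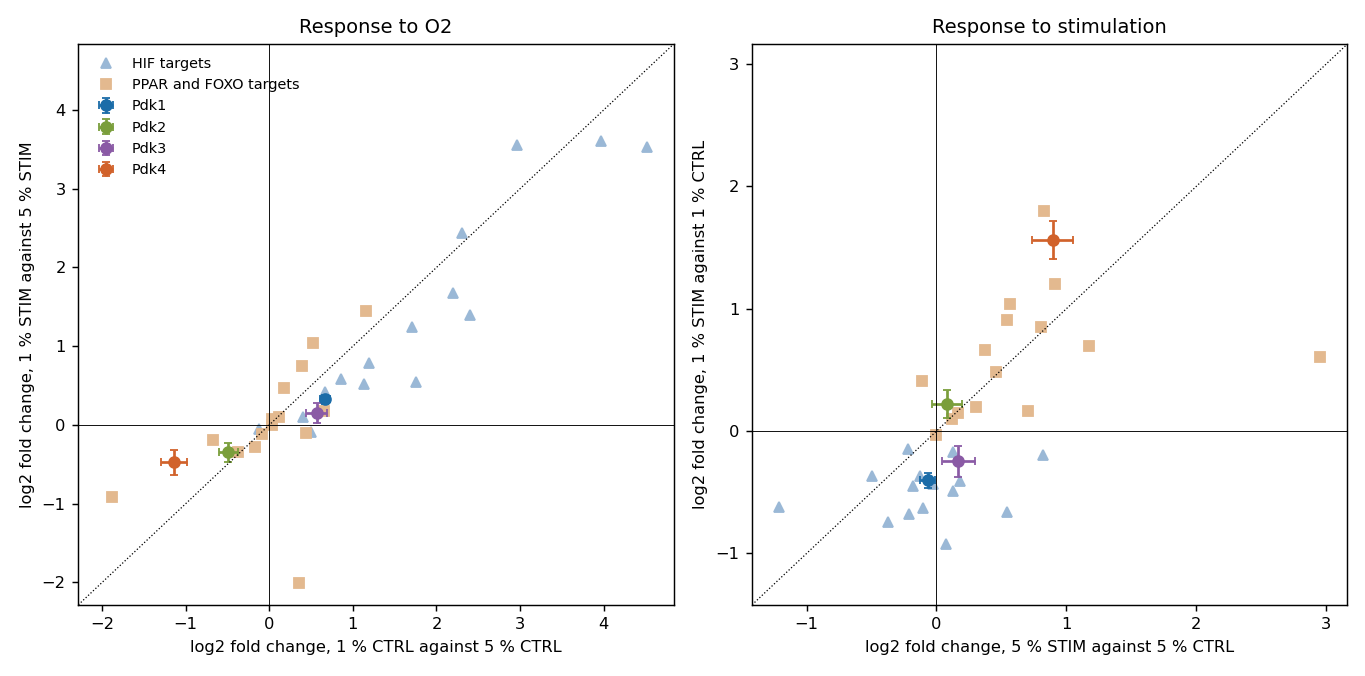
Log2 fold changes of the 4 kinases (with 95 % intervals), 15 HIF targets and 15 PPAR and FOXO targets: low O2 in unstimulated (horizontal) against stimulated myotubes (vertical) on the left, and stimulation at 5 % (horizontal) against 1 % O2 (vertical) on the right, with the dotted line of equal change. The comparisons on a pair of axes share no library. Pdk1 and Pdk3 lie below the line and Pdk4 above it. The height above or below the line is the interaction on either side, so both sides show the same result.

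Of 13 transcription factors known to act on kinase genes, 8 were higher and 2 lower with low O2 at rest, and 4 higher and 1 lower with stimulation at 5 % O2. Over all genes tested these shares were 29.4 % and 30.5 % for low O2 and 9.44 % and 12 % for stimulation. The 3 largest changes with low O2 were in genes of low count: Ppara, the receptor that raises Pdk4 in fasting, rose by 1.67 ± 0.36 (adjusted p = 0.000168) from a mean of 3.09 normalized counts to 10.4, Epas1, which encodes HIF-2 alpha, fell by 0.96 ± 0.18 (adjusted p = 2.08e-05), and Ppargc1a, the coactivator of mitochondrial genes, rose by 0.67 ± 0.20 (adjusted p = 0.00372), by limma. With stimulation at 5 % O2 Pparg rose by 0.29 ± 0.099 (adjusted p = 0.0316), Nr3c1, the glucocorticoid receptor, by 0.22 ± 0.039 (adjusted p = 6.67e-05) and Foxo3 by 0.20 ± 0.038 (adjusted p = 0.000194), by limma. Nr3c1 and Foxo3 were also higher with low O2 at rest, where Pdk4 fell. Their means were 2199 and 1948 in 5 % CTRL, and 2970 and 2711 in 1 % CTRL. Pparg had means of 101 and 99.2 in these groups. Among 9 early genes of muscle stimulation, 3 were higher and 1 lower with stimulation at 5 % O2: Nr4a1 rose by 1.27 ± 0.060 (adjusted p = 1.26e-17), Atf3 rose by 0.94 ± 0.11 (adjusted p = 3.61e-08) and Arc fell by 0.61 ± 0.14 (adjusted p = 0.00178), by limma. Low O2 at rest gave 2 higher and 5 lower, with Arc at -2.19, Egr2 at -1.71 and Egr1 at -1.39, beside -1.14 for Pdk4. The 2 higher went the other way from Pdk4. They were Nr4a1, with means of 302 in 5 % CTRL and 739 in 1 % CTRL, and Nr4a3, with 70.1 and 129.

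The genes whose pattern over the 4 group means was most like each kinase were named by the smallest distance between centred log2 means. The distance was not scaled, so it grows with the size of the changes as well as with differences in direction. The candidates were the 10794 tested genes whose mean was 100 normalized counts or more. The points compared are only 4 group means from the same libraries, so close neighbours are many for an ordinary pattern and few for an unusual one. Nearest to Pdk1 were Stk24, a serine/threonine kinase, Pgm1, phosphoglucomutase, P4ha1, a collagen prolyl hydroxylase subunit, Avpi1 and Rtkn2, at distances of 0.0619 to 0.0692. Stk24 had means of 1238, 1895, 1206 and 1509 in 5 % CTRL, 1 % CTRL, 5 % STIM and 1 % STIM. Nearest to Pdk2 were Tekt5, Aspa, Tmtc2, Ier5 and Slc25a32, a mitochondrial folate carrier, at 0.0290 to 0.0431. Nearest to Pdk3 were Ttc8, Plekha7, D3Ertd751e, Slc25a10, the mitochondrial dicarboxylate carrier, and Firre, a long non-coding RNA, at 0.0297 to 0.0537.

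Of the kinases, Pdk4 had the most isolated pattern by this distance, and it also had the largest changes. Its nearest gene, Tcim, a small regulator of transcription, was at a distance of 0.139, with means of 136, 58.3, 262 and 167 in the same order of groups, and the next were Spsb1 at 0.394, Sgk1, the serum- and glucocorticoid-regulated kinase, at 0.509, Chac1 at 0.519 and Atf3 at 0.538. All 5 were lowest in 1 % CTRL and highest in 5 % STIM, as Pdk4 was. Among the kinases themselves, Pdk1 and Pdk3 were the nearest pair at 0.243, followed by Pdk2 and Pdk3 at 0.847, Pdk1 and Pdk2 at 1.02 and Pdk2 and Pdk4 at 1.17, and Pdk4 stood farthest from Pdk3, at 1.80, and Pdk1, at 2.02. A shorter distance was not a shared direction, since Pdk2 and Pdk3 changed by -0.49 and 0.57 with low O2 at rest. Pdk2 and Pdk4 shared a direction there, with values of -0.49 and -1.14.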

How the data were processed

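Bulk poly(A) RNA of 24 cultures was sequenced with a stranded kit. The authors aligned reads to GRCm38 with STAR 2.5.4b after FastQC 0.11.7, estimated counts per gene with RSEM 1.3.0 and divided them by DESeq2 size factors. The deposited signal values are these normalized counts. Every value was a whole multiple of what 1 read is worth in its library (within 0.001 reads), so reads were recovered for the count tests (100 % of values in each library). A second deposited table holds fold changes and p-values of the authors' own comparisons and was not used.

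Here Ensembl identifiers were matched to GENCODE M21 (99.5 % of 55487), and log2(normalized count + 1) of genes with at least 10 normalized counts in 6 libraries was fitted with limma 3.58.1 (R 4.3.3, trend and robust) over all 4 groups, with Benjamini-Hochberg adjustment over 14541 genes and a threshold of 0.05. Fold changes are on that log2 scale. The ratios of kinases were tested by exact permutation. Alternatives were another pseudocount, no filter, a replicate block, only the groups compared, rescaling to the same total, array weights, a length correction, edgeR 4.0.16, voom, DESeq2 1.42.0, a stricter threshold and leaving out each library. The code was tested on simulated data, and no replicates agreed within counting noise. The spread between libraries sets the precision. It includes counting error, whose part in the spread of single genes was not measured. The libraries are labelled as separate samples, but nothing says that they came from separate days or passages, so p-values measure the spread between these cultures.

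The 10 members and all lists were chosen with earlier results of these data known. Genes of other lists were named by rule: the called genes with the largest change in 1 % CTRL or 5 % STIM against 5 % CTRL, at most 3 a list and comparison, with Dld and Pdpr always, the highest and lowest markers, and the 5 nearest patterns of each kinase. Car9, Cd68 and Pdha2 were named after their values were seen, as were values of named genes in further comparisons. Levels per kb use the summed exon length. The promoter of Pdp1 and protein sequences were not used here.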

Additional observations from a re-analysis of the deposited data

Results flagged for a closer look

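Among the 40 sets of 6 libraries (10 genes in 4 groups), 2 had an end library far from the others by Dixon's test, where chance gives about 1 in 20. Pdk2 in 1 % CTRL replicate 6 was lowest at 573 normalized counts, against 617 in the next library. Pdp1 in 5 % CTRL replicate 5 was highest at 1089, against 1003 in the next.

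The response to stimulation differed between the O2 levels, by the interaction of the limma fit, for 3 of the kinases: Pdk1 at -0.34 (adjusted p = 4.81e-07), Pdk3 at -0.41 (adjusted p = 0.00147) and Pdk4 at 0.66 (adjusted p = 0.000109) on the log2 scale.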

How the results depend on the processing

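The counts of members called, both directions together, stayed within 1.5 times their reported value under every alternative run. By direction, the lower calls in 1 % CTRL against 5 % CTRL went from 4 to 2 under rescaling to the same total (Pdha1 and Dlat), and the higher calls in 1 % STIM against 5 % STIM went from 2 to 1 wherever Pdk3 was lost. No kinase changed direction in any fit except the ratio of Pdk2 to Pdk3 below. The replicate numbers do not pair the libraries: same-numbered libraries correlated at -0.148 to 0.155 (median 0.006), 2 of 36 pairs above 0.1, and 7 of 24 libraries correlated best with their own number. With a replicate block Pdk3 in 5 % STIM against 5 % CTRL had an adjusted p of 0.0514 by limma. For the kinase ratios no block was fitted. Instead the signs of the differences between same-numbered libraries were flipped in an exact test. The pairs of kinases that differed in 5 % STIM against 5 % CTRL then went from 5 to 3, without Pdk1 to Pdk2 and Pdk1 to Pdk3. In 1 % STIM against 5 % STIM the Pdk1 to Pdk3 and Pdk2 to Pdk4 ratios no longer passed by this test. It has fewer arrangements than the permutation test and so a larger smallest possible p. The lost ratios are therefore not read as an effect of the replicate numbers. Pdk3 in 5 % STIM against 5 % CTRL also missed the threshold without a filter (adjusted p = 0.093), with only the groups compared (0.0699), and with array weights, the length correction, voom and DESeq2 (0.0561 to 0.0594), and passed with edgeR. Pdk3 in 1 % STIM against 5 % STIM missed it without a filter (0.0682) and with the length correction (0.0552). The cause was not tested. Over all genes, edgeR on the recovered reads called 4376 higher and 4368 lower in 1 % CTRL against 5 % CTRL, against 4271 and 4437 reported here. At a threshold of 0.01 the calls over all genes went from 1372 higher and 1743 lower to 912 and 1032 in 5 % STIM against 5 % CTRL and from 855 and 790 to 369 and 461 for the interaction, and both Pdk3 calls and that of Dlat were lost. Pdhx passed in 1 % CTRL against 5 % CTRL with only the groups compared (0.0429), array weights (0.0147) and the length correction (0.0411), as did Pdpr with array weights (0.043). Pdk1 in 5 % STIM against 5 % CTRL passed without 5 % STIM replicate 5 (log2 fold change -0.08, adjusted p = 0.0484).

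Rescaling to the same total turned small values that passed in neither fit: in 1 % CTRL against 5 % CTRL to 0.015 (Pdp1), 0.042 (Pdhb) and 0.0012 (Pdpr), in 5 % STIM against 5 % CTRL to 0.017 (Pdp1), and in 1 % STIM against 5 % STIM to 0.035 (Pdha1), 0.044 (Pdhb), 0.040 (Dlat), 0.064 (Pdhx) and 0.0079 (Pdpr). It shifts the median of all genes by 0.08 and 0.07 in the O2 comparisons. With array weights the interaction of Dld turned to 0.017. Leaving out single libraries turned 10 values that did not pass: Pdp1 (-0.029 to 0.0090) and Pdpr (-0.029 to 0.029) in 5 % STIM against 5 % CTRL, Pdhx in 1 % STIM against 5 % STIM (-0.032 to 0.018), Pdha1 (-0.012 to 0.017), Dlat (-0.0019 to 0.026) and Pdhx (-0.00064 to 0.049) in 1 % STIM against 1 % CTRL, the interactions of Pdhb (-0.0057 to 0.024), Dld (-0.020 to 0.025) and Pdpr (-0.0056 to 0.053), and the ratio of Pdk2 to Pdk3 in 5 % STIM against 5 % CTRL (-0.15 to 0.00046).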
